A study of Rattus norvegicus with 14 samples.

Results

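Fabp4, a carrier of fatty acids best known from adipocytes and macrophages, was examined with 7 other genes known as targets of the peroxisome proliferator-activated receptors (PPARs), namely Plin2, Cpt1a, Acot2, Pdk4, Ucp2, Ucp3 and Pex11a. These were 8 of the 14217 genes named on the array, found by symbol among the probe sets annotated with a single gene. They had 15 of the 31099 probe sets, and 12 of the 15 reached a signal of 100 on at least 2 arrays, as did 17515 probe sets in all. These were tested. A further probe set, assigned to Acot2 together with another gene, was left out. Fabp4 was chosen by its signal, which was high under indomethacin and NS-398. Its differences from DMSO and between these drugs are thus given as a description with no test. The question was whether Fabp4 rose alone or together with the other targets, for each drug and each set of arrays.

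The cells were IEC-6, an established rat line from intestinal crypts, held for 72 h in the solvent DMSO (4 arrays), 100 µM indomethacin (2 arrays), 100 µM NS-398 (4 arrays) or 1 µM SC-560 (4 arrays). Indomethacin inhibits both cyclooxygenases, whereas NS-398 favours the inducible form and SC-560 the constitutive form. Per the submitters' design text, the first 2 drugs hold back cell migration here and SC-560 does not. Array labels had a digit with or without the letter b: 6 arrays had no suffix and 8 had suffix b, and indomethacin was present in set b only. What the suffix stands for is not given in the sources used here. Cultures had been pooled and each pool put on several chips, so the spread between arrays may be technical and p-values say nothing on independent cultures. Of 12 intestinal epithelial marker genes on the array, 4 reached a signal of 100 on all 14 arrays and 5 on none, among them Epcam and Krt18, whereas 7 of 10 mesenchymal markers reached it on all arrays. Cdx2, Krt19 and Vil1 reached it on 9, 11 and 4 arrays, and Cdx2 ranged from 55.0 to 5314. The labelled epithelial identity thus rested on part of its markers, and that part differed between arrays.

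PPARs are nuclear receptors that bind DNA as pairs with a retinoid X receptor and are switched on by fatty acids and by synthetic ligands. The gamma form drives fat cell differentiation and lipid storage, with Fabp4 among its best known targets, while the alpha and delta forms raise genes of fatty acid oxidation in liver, muscle and intestine. Indomethacin is known to bind PPAR gamma. The pair binds a direct repeat of the hexamer AGGTCA with a single base between the copies, called DR1.

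Promoter sequences, taken from RefSeq (build GRCr8) as the 250 bases before and 50 after each gene's start, were found for 7 of the 8 genes (8 promoters, 2 of them for Plin2). The table used has no entry for Fabp4. The DR1 motif AGGTCANAGGTCA was searched on both strands, allowing 2 mismatches over its 12 fixed letters. One of the 8 promoters matched, that of Ucp3 at chr1:164227660-164227959 on the plus strand, where AGGTTTCAGGTCA began 57 bases before the start with 2 mismatches. The Ucp3 promoter held 2 copies of the hexamer, and one is the end of that match. Among all 33465 promoters of this length, 3.77% held such a match, 0.0538% held the exact motif and 16.2% held the hexamer. The best match in Pdk4, at chr4:34568280-34568579 on the minus strand, had 4 mismatches. Both are shown with the best match in capitals, Ucp3 because it alone matched and Pdk4 because its signal was higher than in DMSO on the NS-398 arrays of both sets. A match describes letters and not a bound site.
Ucp3 promoter: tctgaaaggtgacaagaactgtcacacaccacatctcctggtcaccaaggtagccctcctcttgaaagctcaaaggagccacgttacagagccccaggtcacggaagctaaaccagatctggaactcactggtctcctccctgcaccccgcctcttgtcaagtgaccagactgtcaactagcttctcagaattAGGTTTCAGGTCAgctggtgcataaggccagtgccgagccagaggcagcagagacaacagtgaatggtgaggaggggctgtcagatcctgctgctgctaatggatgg
Pdk4 promoter: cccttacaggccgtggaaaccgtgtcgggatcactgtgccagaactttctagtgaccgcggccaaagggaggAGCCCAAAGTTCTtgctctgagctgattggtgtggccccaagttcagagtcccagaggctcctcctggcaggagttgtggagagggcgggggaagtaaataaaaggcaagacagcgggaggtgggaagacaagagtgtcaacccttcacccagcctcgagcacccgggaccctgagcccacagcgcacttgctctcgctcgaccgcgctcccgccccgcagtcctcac

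Fabp4 signal was several times higher under indomethacin and NS-398 than under DMSO, in each label set where the drug was measured, and under SC-560 it lay at the DMSO level. In DMSO the signal of its probe set, 1368271_a_at, was 635 and 572 on the arrays without suffix and 176 and 143 on the arrays of set b. Under indomethacin it was 1049 and 1031, both in set b. Under NS-398 it was 1931 and 2052 without suffix and 898 and 1021 in set b. All 6 arrays of these drugs lay above both DMSO arrays of their own set, with no overlap. Under SC-560 the signal was 667 and 518 without suffix and 167 and 144 in set b. In each set the SC-560 range overlapped that of DMSO. No comparison between the drugs is drawn from SC-560, since its dose was 1 µM.

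**Figure D1:**
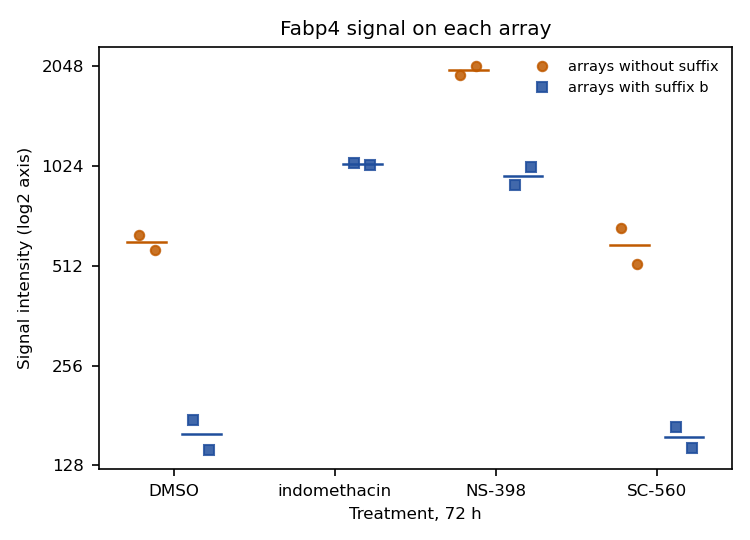
Signal intensity of Fabp4 (log2 axis) on each of the 14 arrays, by treatment, with circles for arrays without suffix, squares for arrays with suffix b and lines for the mean of each pair. The indomethacin and NS-398 arrays lie above the DMSO arrays of the same set, the SC-560 arrays lie among them, and set b is lower throughout.

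Ordered by mean signal (± SD, n = 2 arrays each), Fabp4 was highest under NS-398 without suffix at 1992 ± 85.5. Indomethacin in set b followed at 1040.1 ± 13.1 and NS-398 in set b at 959.5 ± 87.2, and these neighbours did not differ beyond their spread. DMSO and SC-560 without suffix came next at 604 ± 44.3 and 593 ± 105, again within their spread. Lowest were DMSO and SC-560 of set b at 159 ± 23.5 and 156 ± 16.5, which also could not be separated. The order thus mixes drug and label set: a set b array with indomethacin or NS-398 was brighter than any DMSO array, but DMSO itself was 604 in one set and 159 in the other. In bulk RNA, a change in the share of cells that express a gene and a change in RNA per cell cannot be told apart.

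As ratios to DMSO of the same set, the Fabp4 means were 6.53-fold higher for indomethacin, 6.03-fold for NS-398 in set b, and 3.30-fold for NS-398 without suffix, while the SC-560 ratios were 0.98 in both sets. Fits were made on log2(signal + 50), which understates the changes of dim genes. With a term for the label set, Fabp4 differed from DMSO by 2.28 ± 0.16 (SE) under indomethacin, the highest of the 17515 values, and by 1.96 ± 0.12 under NS-398, the second highest. Its SC-560 difference was -0.03 ± 0.12 (95% interval -0.29 to 0.23). Within sets, the difference was 2.39 ± 0.12 for indomethacin and 2.27 ± 0.12 for NS-398 in set b, and 1.64 ± 0.12 for NS-398 without suffix. Without the label set term, the indomethacin value was 1.56 ± 0.63.

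Indomethacin and NS-398, both at 100 µM, could be compared directly. Over all arrays Fabp4 was 0.32 ± 0.16 higher on the log2 scale under indomethacin, with a 95% interval from -0.01 to 0.66. Inside set b, where both drugs were measured side by side, the difference was 0.11 ± 0.12, with an interval from -0.15 to 0.38. Neither interval shows that the drugs act alike. The effect of NS-398 on Fabp4 was larger in set b than without suffix by 0.63 ± 0.18 on the log2 scale, and by 0.24 with 200 added to each signal in place of 50. All these values, those between the drugs included, are a description with no test, since Fabp4 was chosen by its signal on the indomethacin and NS-398 arrays. The signal difference itself, mean NS-398 minus mean DMSO, was not larger in set b, where DMSO stood at 159 and NS-398 at 959.5, against 604 and 1992 without suffix.

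Most markers of adipocytes and macrophages, which express Fabp4, were near background. Of 9 adipocyte markers on the array, 6 were below 100 on all arrays (Adipoq, Plin1, Cidec, Lep, Cfd and Pck1), and of 10 macrophage markers 8 were (Ptprc, Adgre1, Csf1r, Lyz2, Itgam, Cd163, Tyrobp and Fcer1g). The summed adipocyte signal in set b was 646 to 699 in DMSO, 782 to 987 under indomethacin, 732 to 837 under NS-398 and 790 to 953 under SC-560. Without suffix it was 543 to 546 in DMSO, 652 to 713 under NS-398 and 547 to 619 under SC-560. The macrophage sum in set b was 3399 to 3658 in DMSO, 4038 to 4413 under indomethacin, 3939 to 4148 under NS-398 and 3192 to 3355 under SC-560. Without suffix it was 3828 to 4016 in DMSO, 4189 to 4271 under NS-398 and 3736 to 3925 under SC-560. The macrophage sums were above DMSO under both drugs, as Fabp4 was. The adipocyte sums were above DMSO under SC-560 too, where Fabp4 was not, but without suffix only just (from 547, with DMSO up to 546). Of the 9 adipocyte markers only 3 reached 100 on at least 2 arrays, among them Lipe and Cidea. Under SC-560 Lipe changed by 0.63 and Cidea by -0.23, neither called. Most of the macrophage sum was a single gene, Cd14, a co-receptor for lipopolysaccharide, which read 2871 to 4088 over the arrays. It was 0.27 ± 0.07 higher under indomethacin (limma, adjusted p = 0.0497) and 0.16 ± 0.06 under NS-398 (adjusted p = 0.0741). Endothelial markers were measured as well: of 9 on the array, 5 were below 100 on all arrays (Pecam1, Tie1, Vwf, Eng and Emcn), while Tek, an endothelial receptor kinase, read 182 to 801. The endothelial sum in set b was 1118 to 1153 in DMSO, 1203 to 1265 under indomethacin, 1182 to 1231 under NS-398 and 1249 to 1261 under SC-560. Without suffix it was 525 to 529.7 in DMSO, with 554 to 652 under NS-398 and 597 to 652 under SC-560, so all drug arrays lay above DMSO, SC-560 included. The epithelial sum in set b was 14627 to 15139.9 in DMSO, 18026 to 18070.3 under indomethacin, 14522 to 15425 under NS-398 and 15846 to 16118 under SC-560, highest under indomethacin. The mesenchymal sum in set b was 90990.2 to 94278 in DMSO, 90698 to 94078 under indomethacin, 91668 to 96538 under NS-398 and 103325 to 105782 under SC-560. Without suffix the epithelial sum was 11680 to 11741 in DMSO, 11172 to 11666 under NS-398 and 11765 to 12008 under SC-560. The mesenchymal sum there was 72664 to 74839 in DMSO, 68116 to 72165 under NS-398 and 75667 to 78222 under SC-560. Without suffix both sums thus lay below DMSO under NS-398 and above it under SC-560. The sums do not show changes of single mesenchymal markers, of which 8 were tested. Under indomethacin limma called Tagln (-1.65, adjusted p = 0.00262) and Dcn (-0.59, 0.0188) lower, where 3.27% of all were called. Under NS-398 it called Tagln (-1.04, adjusted p = 0.00364) and Col1a2 (-0.24, 0.00132) lower and Dcn higher (0.80, 7.39e-05), where 13.5% of all were called. The part of these markers in the Fabp4 result was not tested.

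The 7 other genes were measured by 11 tested probe sets. On the fitted log2 scale, which understates the changes of dim genes, none of these came near the size of the Fabp4 difference. As ratios of mean signal to DMSO of the same set, the dim Pdk4 (1378074_at) was closer under NS-398. Its ratio was 3.14 in set b and 1.99 without suffix, against 6.03 and 3.30 for Fabp4. The probe set of Pdk4 passed the minimum signal only through its 2 NS-398 arrays of set b, so a call for it was favoured by the filter. It is described without a test, and the counts are over the 10 probe sets of the 6 remaining genes. Under indomethacin 0 of the 10 were called, against 3.27% of all tested probe sets. A call is an adjusted p under 0.05 in limma's moderated test with Benjamini-Hochberg adjustment. At an unadjusted p under 0.05 there were 2 of the 10, Cpt1a and Ucp2, both lower, against 2927 of all 17515. Under NS-398 1 of 10 was called, Ucp2, lower, against 13.5% of all, and 3 of the 10 had an unadjusted p under 0.05, against 4830 of 17515. Under SC-560 0 of 10 were called, as were 0% of all, and 0 of the 10 had an unadjusted p under 0.05, against 1263 of 17515. The median change of the 10 was 0.11 under indomethacin, 0.14 under NS-398 and 0.03 under SC-560, while the median of all tested probe sets was within 0.01 of 0 in each. The 10 values ran from -0.25 to 0.31 for indomethacin, from -0.31 to 0.34 for NS-398 and from -0.17 to 0.18 for SC-560.

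The counts were also taken within each set of arrays. Indomethacin in set b had 1 of 10 called, against 7.1% of all tested probe sets, and this was Acot2, higher. NS-398 in set b had 3 of 10 called, all higher, against 14.7% of all called and 7.71% called higher, from Plin2 and Acot2 (2 probe sets). NS-398 without suffix had 1 of 10 called, Ucp2, lower, against 11.9%. For SC-560 the counts were 0 of 10 in both sets, against 0.0114% without suffix and 0.0228% in set b. At an unadjusted p under 0.05 they were 0 without suffix and 3 in set b, against 1134 and 1781 of all 17515. In set b the comparisons of indomethacin and NS-398 share the DMSO arrays 1b and 2b, so their values are not independent. Leaving out DMSO 1b, DMSO 2b or NS-398 2b reduced the NS-398 count in set b from 3 to 1, and leaving out NS-398 1b reduced it to 2. Leaving out DMSO 1b or indomethacin 2b reduced the indomethacin count in set b to 0.

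**Figure D2:**
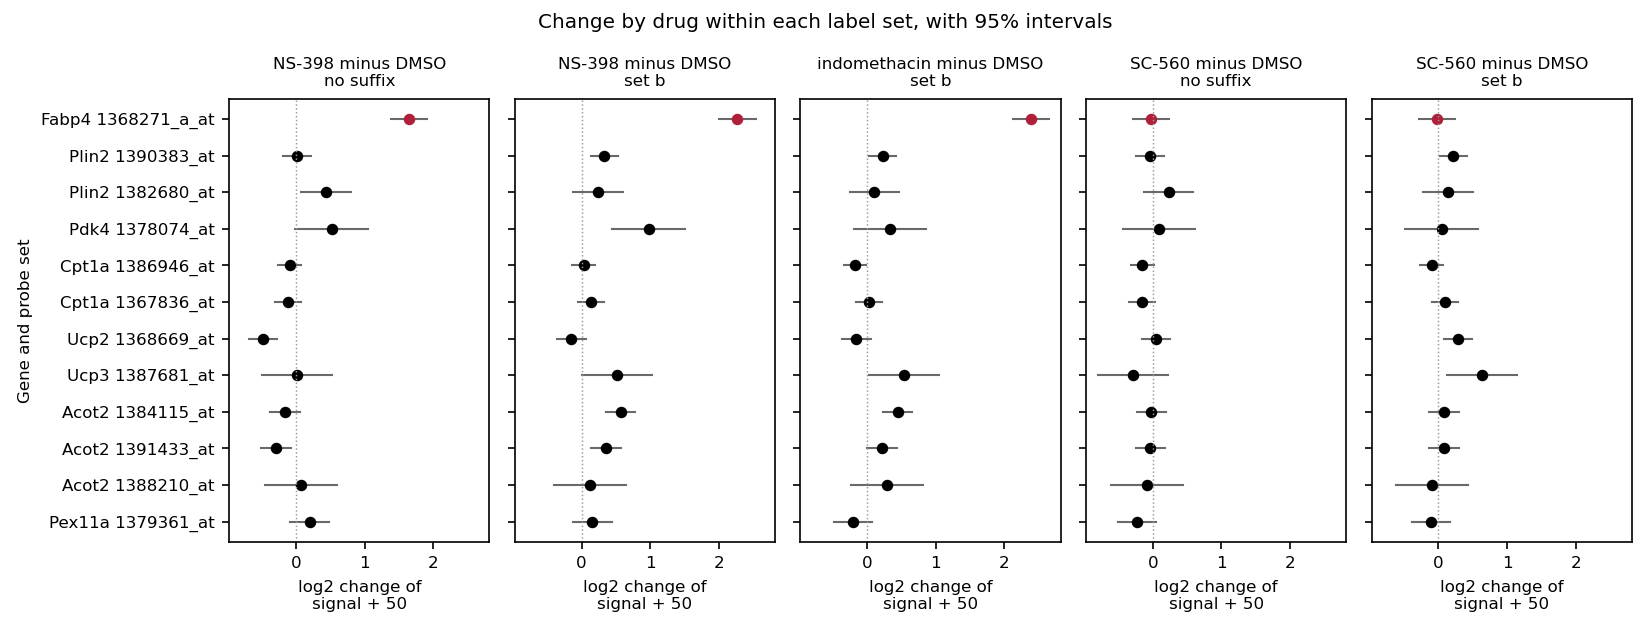
Change from DMSO in log2(signal + 50) for each tested probe set of the 8 genes, by drug and label set, as points with 95% intervals. Fabp4 (red) stands at 1.64 to 2.39 under NS-398 and indomethacin and at -0.03 and -0.02 under SC-560, and the other points lie between -0.48 and 0.98.

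Plin2 encodes perilipin 2, the coat protein of lipid droplets outside fat cells, and was strongly expressed. The signal of probe set 1390383_at in set b was 873 and 817 in DMSO, 1028 and 962 under indomethacin, 963 and 1206 under NS-398, and 1019 and 961 under SC-560. Without suffix it was 1607 and 1571 in DMSO, 1597 and 1616 under NS-398, and 1588 and 1500.1 under SC-560. In set b all 6 drug arrays were above the DMSO pair, SC-560 included, whereas without suffix the drug and DMSO ranges overlapped. In set b the change was 0.33 ± 0.09 for NS-398 (limma, adjusted p = 0.0245), 0.22 ± 0.09 for indomethacin (adjusted p = 0.178) and 0.22 ± 0.09 for SC-560 (adjusted p = 0.455). The NS-398 call was lost without DMSO 1b (adjusted p = 0.0663), DMSO 2b (0.146) or NS-398 2b (0.291), and without the last the change was 0.18. Over both sets the NS-398 change was 0.17 ± 0.08 (adjusted p = 0.162).

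The second Plin2 probe set, 1382680_at, was dim, from 101 to 265 over all arrays. Its NS-398 arrays without suffix read 265 and 260.5 against 177 and 187 in DMSO, and in set b 184 and 118 against 101 and 136, so of the NS-398 pairs only the first was clear of DMSO. The SC-560 pair without suffix, at 224 and 219, was clear of DMSO too. Its NS-398 change was 0.34 ± 0.12 (limma, adjusted p = 0.0681), and it passed the threshold when DMSO 2b (adjusted p = 0.0453) or NS-398 2b (0.0187) was left out, and with no intensity trend (0.0461). The 2 probe sets of Plin2 thus put the larger NS-398 difference in different label sets.

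Cpt1a encodes the carnitine palmitoyltransferase that admits long-chain fatty acids to mitochondria. Probe set 1386946_at read 1718 and 1706 in DMSO, 1455 and 1561 under indomethacin, 1763 and 1741 under NS-398, and 1519 and 1679.9 under SC-560 in set b. Without suffix it read 2311 and 2484 in DMSO, 2202 and 2289 under NS-398, and 2292 and 2019.9 under SC-560. The indomethacin pair lay below DMSO, as did both SC-560 pairs, while NS-398 lay just above DMSO in one set and just below it in the other. Its indomethacin change was -0.21 ± 0.08 (limma, adjusted p = 0.165), and the NS-398 change was -0.03 ± 0.06 with a 95% interval from -0.16 to 0.10. The other probe set, 1367836_at, ranged from 801 to 1231 and gave -0.06 ± 0.10 for indomethacin and 0.01 ± 0.07 for NS-398, neither called.

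Acot2 encodes a mitochondrial thioesterase that splits acyl-CoA into fatty acid and coenzyme A. Probe set 1384115_at read 597 and 719.8 in DMSO, 882 and 940.2 under indomethacin, 1025 and 968 under NS-398, and 748 and 646 under SC-560 in set b. Without suffix it read 885 and 926 in DMSO, 807 and 801 under NS-398, and 928 and 852 under SC-560. Indomethacin and NS-398 were above DMSO in set b with no overlap, and NS-398 was below DMSO without suffix. In set b the change was 0.44 ± 0.10 for indomethacin (limma, adjusted p = 0.014) and 0.57 ± 0.10 for NS-398 (adjusted p = 0.00126). The indomethacin call was lost without DMSO 1b (0.32, adjusted p = 0.19) or indomethacin 2b (0.40, adjusted p = 0.114), and the NS-398 call held with each array left out. Over both sets neither drug's change was called, at 0.31 ± 0.15 for indomethacin (adjusted p = 0.335) and 0.20 ± 0.12 for NS-398 (adjusted p = 0.292).

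The second Acot2 probe set, 1391433_at, had the same pattern: 477 and 494 in DMSO, 583 and 559 under indomethacin, 642 and 627 under NS-398, and 542 and 494 under SC-560 in set b, with 657 and 778, 604 and 546, and 711 and 683 for DMSO, NS-398 and SC-560 without suffix. NS-398 again lay above DMSO in one set and below it in the other. Its NS-398 change was 0.35 ± 0.10 in set b (limma, adjusted p = 0.0283) and -0.29 ± 0.10 without suffix (adjusted p = 0.0758). The set b call was lost without any of DMSO 1b, DMSO 2b, NS-398 1b or NS-398 2b, with adjusted p from 0.084 to 0.147. The NS-398 effect differed between the sets by 0.73 ± 0.14 for 1384115_at (limma interaction, adjusted p = 0.00652) and by 0.65 ± 0.14 for 1391433_at (adjusted p = 0.0141), these being 2 of 10 probe sets called in a contrast where 6.09% of all were. The second was lost without DMSO 2 (adjusted p = 0.073), DMSO 1b (0.0587) or NS-398 2 (0.071). The third, 1388210_at, was dim, from 44.0 to 207, and was called in no drug contrast.

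**Figure D3:**
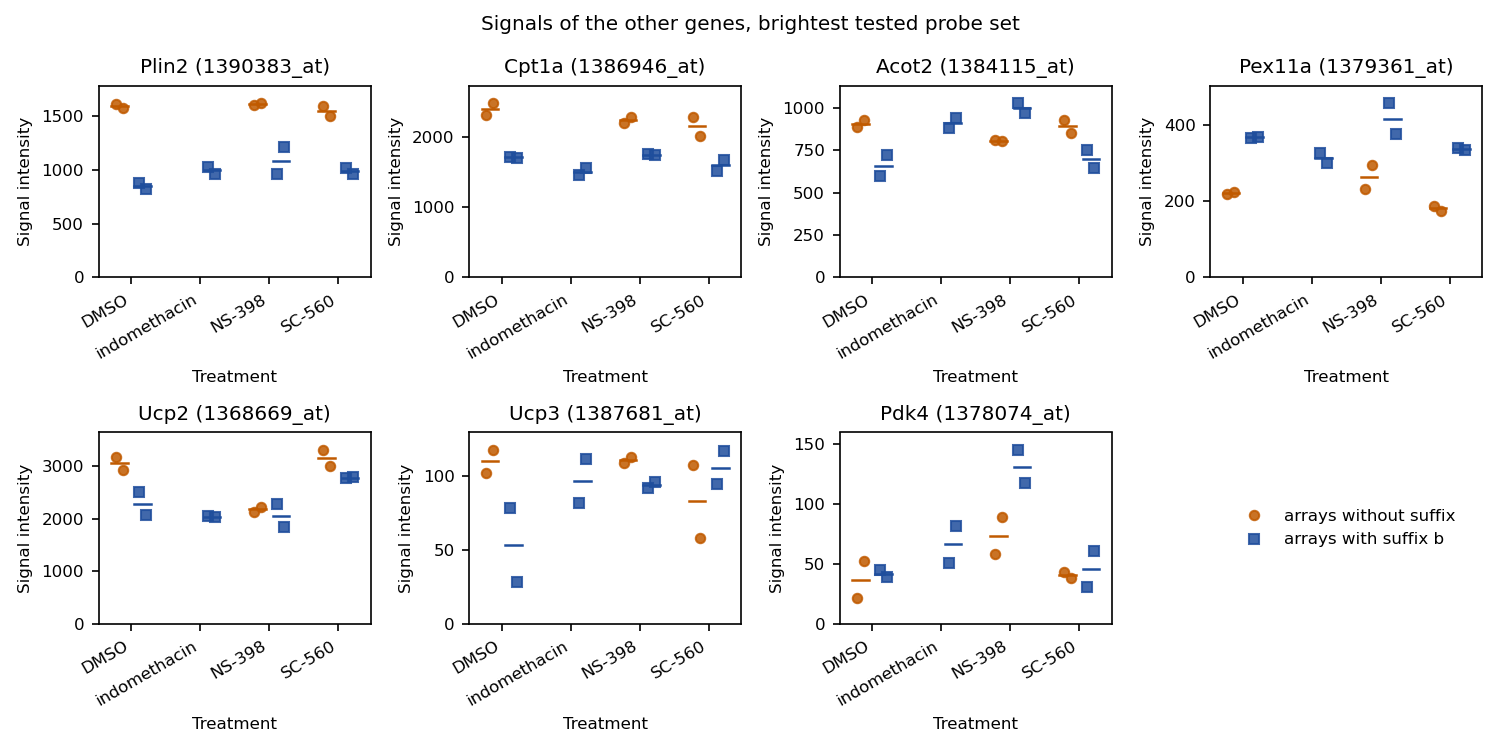
Signal intensity (linear axes from 0, a scale per gene) on each array for 1 probe set of each of the other 7 genes, the one with the highest mean among those tested, with circles for arrays without suffix, squares for suffix b and lines for the mean of each pair. Acot2 is above DMSO under indomethacin and NS-398 in set b only, Ucp2 is lowest under NS-398 and indomethacin, and Pdk4 exceeds 100 only on the 2 NS-398 arrays of set b.

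Pdk4 encodes a kinase that shuts off pyruvate dehydrogenase when cells burn fat, and here it was close to the detection limit. Probe set 1378074_at read 21.8 and 52.2 without suffix and 45.1 and 38.8 in set b in DMSO. Under NS-398 it read 58.1 and 89.2 without suffix and 145 and 118 in set b, and under indomethacin 51.3 and 81.9. Under SC-560 it read 43.7 and 38.5 without suffix and 31.2 and 60.8 in set b. Both NS-398 pairs and the indomethacin pair were above DMSO of their set, while SC-560 overlapped DMSO. Only the 2 NS-398 arrays of set b were above 100. As values with no test, the change was 0.75 ± 0.18 for NS-398, 0.26 ± 0.24 for indomethacin and 0.07 ± 0.18 for SC-560.

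Within sets the NS-398 change of Pdk4 was 0.98 ± 0.25 in set b and 0.52 ± 0.25 without suffix. The second Pdk4 probe set, 1369150_at, was below 100 on all arrays and was not tested. In set b it read 19.8 and 61.7 in DMSO and 22.7 and 41.6 under NS-398, which overlap. Without suffix it read 43.3 and 35.3 in DMSO and 48.6 and 65.8 under NS-398, the latter pair above DMSO.

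Ucp2 encodes a carrier of the inner mitochondrial membrane, and was the only tested member called lower under a drug. Its signal without suffix was 3180.1 and 2931 in DMSO, 2130.1 and 2229 under NS-398, and 3306 and 3006 under SC-560. In set b it was 2506 and 2063 in DMSO, 2043 and 2022 under indomethacin, 2275 and 1842 under NS-398, and 2765 and 2785 under SC-560. NS-398 was clear of DMSO without suffix and overlapped it in set b. The NS-398 change was -0.31 ± 0.08 over both sets (limma, adjusted p = 0.017), -0.48 ± 0.10 without suffix (adjusted p = 0.00435) and -0.15 ± 0.10 in set b (adjusted p = 0.358). The call over both sets was lost without DMSO 1 (adjusted p = 0.0644), DMSO 1b (0.0505), NS-398 1 (0.0555) or NS-398 2b (0.0512), and the call without suffix was lost without DMSO 1 (0.0524). The indomethacin change was -0.25 ± 0.10 (adjusted p = 0.223). Under SC-560 the change was 0.16 ± 0.08 (adjusted p = 0.707).

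Ucp3, the related carrier of skeletal muscle and brown fat, was dim. Probe set 1387681_at ranged from 28.4 to 117, with 78.4 and 28.4 in DMSO of set b against 81.8 and 112 under indomethacin, 91.7 and 95.8 under NS-398, and 94.4 and 117 under SC-560. All 6 drug arrays of set b were above the DMSO pair, the SC-560 pair included, while without suffix the DMSO arrays read 102 and 117 and the NS-398 arrays 109 and 113. None of its changes was called, at 0.30 ± 0.26 for indomethacin (limma, adjusted p = 0.608) and 0.26 ± 0.20 for NS-398 (adjusted p = 0.424). The other probe set, 1382958_at, reached 100 on 1 array and was not tested. The Ucp3 promoter with the DR1-like letters shown above thus belongs to a gene with no called change.

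Pex11a encodes a membrane protein that drives the division of peroxisomes. Probe set 1379361_at read 366 and 369.6 in DMSO, 326 and 299 under indomethacin, 457 and 377 under NS-398, and 341 and 333 under SC-560 in set b. Without suffix it read 219.9 and 225 in DMSO, 233 and 297 under NS-398, and 189 and 175 under SC-560. NS-398 was above DMSO in both sets, and indomethacin and SC-560 were below it. The change was 0.18 ± 0.09 for NS-398 (limma, adjusted p = 0.229), -0.22 ± 0.12 for indomethacin (adjusted p = 0.386) and -0.17 ± 0.09 for SC-560 (adjusted p = 0.748). The second probe set, 1387740_at, reached 100 only on NS-398 2b, at 129.8, and was not tested.

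Indomethacin minus NS-398, at equal dose, gave 0 called of the 10 probe sets without Pdk4, against 5.45% of all tested, and 0 of 10 in set b alone, against 9.99%. The differences nearest to a call were those of Pex11a, -0.40 ± 0.12 with a 95% interval from -0.65 to -0.14 (limma, adjusted p = 0.0637), and Cpt1a (1386946_at), -0.18 ± 0.08 with an interval from -0.34 to -0.02 (adjusted p = 0.2). Without NS-398 2b the Pex11a difference was -0.48 (adjusted p = 0.0421). Unadjusted p was under 0.05 for 2 of the 10 over all arrays, against 3531 of all 17515. In set b it was for 2 of the 10, against 4178. The Pdk4 difference, with no test, was -0.49 ± 0.24.

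With the drug groups held in the model, 8 of the 10 probe sets differed between the label sets, 1 higher and 7 lower in set b. So did 59% of all tested probe sets, 31% higher and 28% lower. Of 7 tested epithelial markers, 6 were called higher in set b and 1 lower, with a median difference of 2.03. Fabp4 itself was 1.43 ± 0.10 lower in set b. Pex11a was 0.64 ± 0.08 higher, while Plin2 was lower by both probe sets (-0.68 ± 0.06 and -0.56 ± 0.10), as was Cpt1a (-0.41 ± 0.05 and -0.32 ± 0.06).

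**Figure D4:**
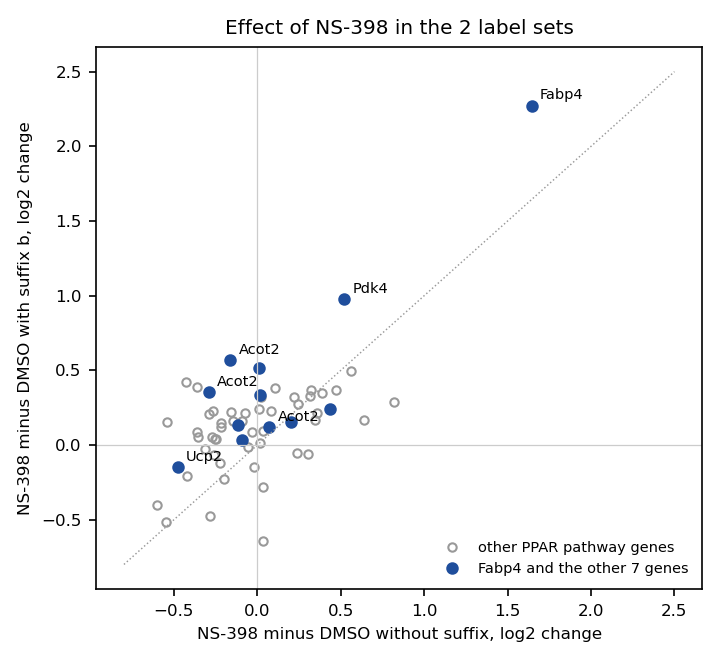
NS-398 minus DMSO in log2(signal + 50) without suffix (x axis) against set b (y axis), with filled circles for the tested probe sets of the 8 genes, open circles for the 48 genes of the other PPAR target lists and a dotted line where both are equal. Fabp4 lies at 1.64 and 2.27, Pdk4 at 0.52 and 0.98, 2 Acot2 probe sets are below 0 on one axis and above it on the other, and Ucp2 is below 0 on both.

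Of the 6 receptors listed, 3 were too dim to test and none of the others was called. Pparg, the gamma receptor, ranged from 20.6 to 80.1, Ppara, the alpha receptor, from 2.34 to 13.7, and Rxrg, a partner receptor, from 14.1 to 97.5. None of these reached 100 on any array, so none was tested. Ppard, the delta receptor, ranged from 220.3 to 618, and its change was 0.40 ± 0.16 under indomethacin (limma, adjusted p = 0.184), 0.21 ± 0.12 under NS-398 (adjusted p = 0.286) and 0.40 ± 0.12 under SC-560 (adjusted p = 0.465). Among the partner receptors, Rxra changed by -0.10 ± 0.16 under indomethacin and 0.13 ± 0.13 under NS-398, and Rxrb by 0.26 ± 0.17 and 0.16 ± 0.13, with none called. Of 17 receptors and cofactors listed, 11 were tested, and limma called 0 in any drug contrast. At an unadjusted p under 0.05 there were 2 under indomethacin, 0 under NS-398 and 2 under SC-560. Of all 17515 probe sets there were 2927, 4830 and 1263.

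A wider set of 76 genes in 5 lists of PPAR targets and fatty acid genes, of which 71 were on the array and 48 were tested, gave the comparison for Fabp4. The lists were chosen with earlier results of these data known. Each listed gene was read by 1 probe set, the one with the highest mean log2 signal. The shares of all are over every tested probe set, so the 2 kinds of share are not fully alike. On the fitted log2 scale, none of the 48 rose as far as Fabp4 under indomethacin or NS-398. Under indomethacin 2 were called higher and 1 lower, or 6.25% against 3.27% of all tested probe sets, with a median change of 0.11. Under NS-398 8 were called higher and 4 lower, or 25% against 13.5% of all, with a median of 0.01. Under SC-560 limma called 0, with 2 at an unadjusted p under 0.05, against 1263 of all 17515 probe sets. Within sets, NS-398 without suffix had 6 called higher and 8 lower, or 29.2% against 11.9% of all, with a median of -0.06. NS-398 in set b had 10 called higher and 4 lower, or 29.2% against 14.7%, with a median of 0.15. Indomethacin in set b had 5 called higher and 1 lower, or 12.5% against 7.1%, with a median of 0.11. For SC-560 the count was 0 in each set. A further 20 genes stayed below 100 on all arrays, including Cd36, Lpl, Angptl4, Fabp1, Fabp2, Fabp3 and Plin1.

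Scd, the desaturase that makes monounsaturated fatty acids, was the highest of the 48 under indomethacin, at 0.77 ± 0.14 (limma, adjusted p = 0.00599), and was 0.53 ± 0.11 higher under NS-398 (adjusted p = 0.00438). The indomethacin call for Scd was lost without indomethacin 1b or 2b, with adjusted p up to 0.0803. Vnn1, a pantetheinase of liver and gut, was lowest of the 48 under both drugs, at -0.73 ± 0.11 (adjusted p = 0.000958) and -0.53 ± 0.08 (adjusted p = 0.000497). Txnip, an inhibitor of thioredoxin, rose by 0.30 ± 0.07 under indomethacin (adjusted p = 0.0212), a call lost without DMSO 1b, DMSO 2b, indomethacin 1b or indomethacin 2b, with adjusted p up to 0.203. The 2 drugs share DMSO arrays, so these values are not separate evidence.

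**Figure D5:**
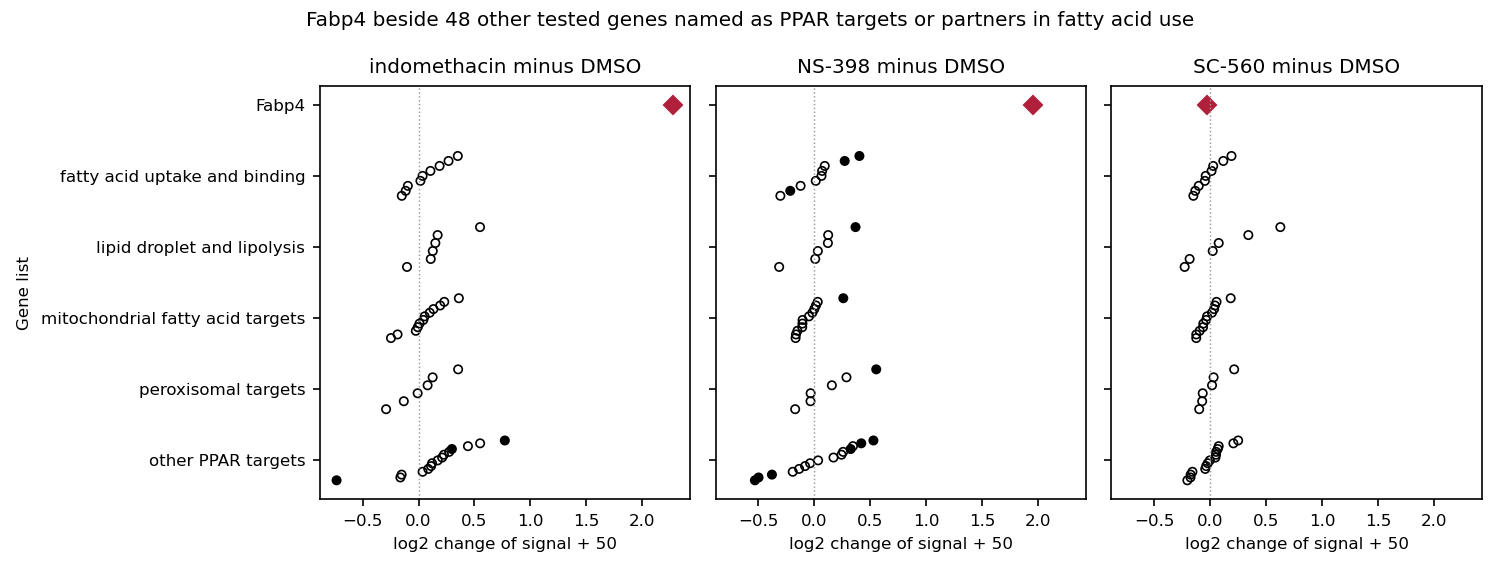
Change from DMSO in log2(signal + 50) for Fabp4 (diamond) and the 48 tested genes of 5 lists (circles, filled where called at an adjusted p under 0.05), by drug. Fabp4 stands at 2.28 and 1.96 under indomethacin and NS-398, above all 48 genes, which lie between -0.73 and 0.77.

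Genes of all 5 lists were called under NS-398, where 13.5% of all tested probe sets were called. In a list of 6 or 12 genes, 1 call is thus near the share of all. Of 9 genes for fatty acid uptake and binding, 2 rose and 1 fell: the acyl-CoA synthetases Acsl4 (0.27 ± 0.07, adjusted p = 0.0166) and Acsl1 (0.40 ± 0.12, adjusted p = 0.0295) rose, and the acyl-CoA carrier Dbi fell by 0.22 (limma, adjusted p = 0.00343). Acsl1 was lost without DMSO 1, 1b or 2b or NS-398 1 or 2, with adjusted p up to 0.101, and Acsl4 without NS-398 1b (0.0558). Among 11 other processing settings, listed below, the call held in 7 for Acsl1 and 8 for Acsl4. Of 6 lipid droplet genes, 1 rose, Abhd5, the coactivator of triglyceride lipase, by 0.37 ± 0.06 (adjusted p = 0.000972). Of 12 mitochondrial genes 1 rose, the acyl-CoA dehydrogenase Acadl, by 0.26 ± 0.06 (adjusted p = 0.00515), with a list median of -0.08. The sets differed for these 12 genes. Without suffix 1 was called higher and 5 lower, against 11.9% of all, with a median of -0.26. In set b 2 were called higher and 0 lower, against 14.7% of all, with a median of 0.05. The NS-398 effect was called higher in set b than without suffix for 3 of the 12, against 6.09% of all.

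Of 6 peroxisomal genes 1 rose under NS-398, Cat, the catalase that breaks down hydrogen peroxide, by 0.55 ± 0.15 (limma, adjusted p = 0.0203). The Cat call was lost without DMSO 1 or NS-398 1, 2 or 2b, with adjusted p up to 0.0749. Of 15 other targets 3 rose and 3 fell. The risers were the transcription factor Cebpb (0.32 ± 0.05, adjusted p = 0.000222), Scd and the glycerol channel Aqp7 (0.42 ± 0.12, adjusted p = 0.0276). Besides Vnn1, the cholesterol exporter Abcg1 fell by 0.50 (adjusted p = 0.0311) and the kinase Pdk2, a relative of Pdk4, fell by 0.38 (adjusted p = 0.0395). The Aqp7 call was lost without DMSO 1, 2 or 2b or NS-398 1, 2 or 1b, with adjusted p up to 0.0723. That of Pdk2 was lost without any DMSO array or NS-398 2 or 2b (up to 0.126), and that of Abcg1 without DMSO 2, 1b or 2b or NS-398 1 or 1b (up to 0.112). Abcg1 ranged from 5.58 to 1220 and reached 100 on 8 of the 14 arrays. Among the other processing settings listed below, calls held in 5 of 11 for Abcg1, 5 of 10 for Aqp7 and 6 of 11 for Pdk2.

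The 10 genes whose signal followed that of Fabp4 most closely were outside the PPAR lists. Those 5 lists had 48 tested genes, against 8407 genes compared here, so their absence from the 10 says little about PPAR targets. Not all of the 48 were compared, since a mean of at least 200 in some group was required. Aqp7, for one, read at most 148. Over the 14 arrays, with the label set term removed, the highest Pearson correlations among 8407 named genes were those of Sowahc (0.98), Nqo1 (0.97), Rbx1 (0.97), Canx (0.95), Clu (0.95), Aldh2 (0.94), Flot1 (0.94), Dock9 (0.94), Car5b (0.93) and Gda (0.93). These points share the arrays and 7 combinations of group and set, and only 1 of the 10 was also in the top 10 by Spearman correlation, and 5 in that over set b alone, so the order among such genes is loose. Their changes were smaller than that of Fabp4: under indomethacin Clu, a secreted chaperone, was 1.37 ± 0.09 higher and Nqo1, a quinone reductase, 0.65 ± 0.07. Measured the same way, the other members correlated with Fabp4 at 0.71 for Pdk4, 0.65, 0.47 and 0.25 for Acot2 (1384115_at, 1388210_at and 1391433_at), 0.56 and 0.43 for Plin2, 0.38 for Ucp3, 0.29 for Pex11a, -0.15 and 0.02 for Cpt1a and -0.77 for Ucp2.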

How the data were processed

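The authors deposited linear signal intensities, 1 per probe set and array, for 14 one-colour arrays. Each array had been brought to a target signal of 500, per the labels, and its mean trimmed by 2% at each end lay between 500.163 and 500.173. The program that summarised the probes is not given in the sources used here. Array medians ran from 97.8 to 118. The number of arrays limits the precision.

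Control probe sets (57) were not tested. Of 31099 probe sets, 20832 carried 1 symbol, 436 carried several and 9831 carried none here, and only the first were named. Symbols follow a RefSeq table (GRCr8), matched on gene identifier. Values were fitted as log2(signal + 50) with limma 3.58.1 in R 4.3.3, with a trended empirical Bayes step, over probe sets at 100 or more on at least 2 arrays. One model had 4 groups and the label set, and a second had a mean for each of the 7 combinations of group and set. P-values were adjusted by Benjamini-Hochberg over all 17515 probe sets, and a call is an adjusted p under 0.05. The fit was checked on simulated data. SD is over signals, SE from the fit.

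The members, gene lists and tests were chosen with earlier results of these data known. Named from the lists were, per list and direction, up to 3 called genes of smallest adjusted p under indomethacin or NS-398, the receptors, and the 10 genes most like Fabp4 in Pearson correlation among genes whose mean reached 200 in some group, for which no p is given. Alternatives were other constants (16, 200), quantile normalization, other filters, no label set term, each set alone, blocks, no trend, and each array left out.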

Additional observations from a re-analysis of the deposited data

Results flagged for a closer look

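The effect of NS-398 differed between the label sets for 2 probe sets, both of Acot2, by limma's interaction test over all probe sets. It was 0.73 larger (log2) in set b for 1384115_at (adjusted p = 0.00652), whose call held with each array left out. It was 0.647 larger for 1391433_at (adjusted p = 0.0141), whose call was lost without DMSO 2, DMSO 1b or NS-398 2. The label set itself moved most of the tested probe sets of these genes, and its part in these differences was not tested.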

How the results depend on the processing

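For Fabp4, the indomethacin change was 2.47 and 1.75 with 16 or 200 added to the signal and 1.56 with no label set term, against 2.28. Its NS-398 change was 1.57 with 200 added, 2.27 in set b alone and 1.64 without suffix alone, against 1.96. Indomethacin minus NS-398 was 0.11 in set b alone and -0.40 with no label set term, against 0.32. Leaving out each array in turn gave 2.17 to 2.32, 1.85 to 2.05, -0.13 to 0.04 for SC-560 and 0.26 to 0.47 for indomethacin minus NS-398.

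Of the 11 other probe sets, indomethacin called 1 in set b alone (Acot2), against 0. With Pdk4 included, NS-398 called 1 at a minimum of 200 on 4 arrays, 0 with no label set term and 1 without suffix alone, against 2, and 1 to 3 with an array left out, with 1 without DMSO 1, DMSO 1b or NS-398 1. Without Pdk4 it called 1, and 0 without DMSO 1, DMSO 1b or NS-398 1 or with no label set term, and 2 without DMSO 2b, in set b alone or with no trend. Indomethacin minus NS-398 called 0 to 1. Cpt2, a mitochondrial acyltransferase, turned from -0.0010 to 0.43 under NS-398 in set b alone (adjusted p = 0.0152). With no label set term, indomethacin, present in set b only, is set against DMSO of both sets. The cause of the other shifts was not tested.

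Called probe sets in all were 572 for indomethacin (100 without indomethacin 2b, 158 without indomethacin 1b, 239 without DMSO 1b, 379 without DMSO 2b, up to 632 with others left out, 347 with no filter, 328 with no trend, 2 with no label set term, 283 with a random block, 1174 in set b alone), 2366 for NS-398 (1659 to 2369, 1561 with a random block, 111 with no label set term) and 954 for indomethacin minus NS-398 (261 without indomethacin 2b, 294 without indomethacin 1b, up to 985, 15 with no label set term, 1630 in set b alone).

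Shared labels were checked for pairing: once each group by set mean was subtracted, same-label arrays correlated from -0.08 to 0.06. No pairing was thus seen between arrays. Since each pool was put on several chips, this cannot show whether the cultures were paired. With the replicate block, Fabp4 changed by 2.28 (indomethacin), 1.96 (NS-398) and -0.03 (SC-560), with 0.32 between the first 2, and 0, 2, 0 and 0 other probe sets were called. All probe sets called were 388, 1953, 0 and 732 with the block.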
